A study of Mus musculus with 8 samples.

Results

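The interferon-responding fibroblasts of colon assembloids were examined in the stromal libraries of the assembloids. A cell was a member if it had at least 500 genes and at most 10% mitochondrial UMIs (unique molecular identifiers, which count captured mRNA molecules), at least 3 UMIs of the collagen gene Col1a2, no UMI of the epithelial gene Epcam, and at least 1 UMI in 3 or more of Ifit1, Ifit3, Rsad2, Cmpk2 and Usp18. These 5 are called the gate genes, and the cells that passed are called gated fibroblasts. There were 1298 gated cells among 15558 fibroblasts that met the Col1a2 and Epcam limits, and the whole series held 77108 cells above the quality limits. The gated cells were compared with the other fibroblasts of their own library, which numbered 6924 in stroma 1 and 7336 in stroma 2.

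Assembloids combine mouse colon organoids, which are epithelial cells grown in 3 dimensions, with primary stromal cells of the colon that had first been grown in a flask. They were kept in medium without Wnt surrogate, CHIR99021, R-spondin 1 and noggin, so that no Wnt activator and no BMP inhibitor was added. The 2 stromal libraries are biological replicates that hold live EpCAM-negative cells sorted from assembloids of C57BL/6 mice. They were made with the 10x Genomics 3' assay, and no group was given interferon or left without it, so gated and other fibroblasts shared one culture. The 6 further libraries hold epithelial cells of assembloids, organoids and colon tissue.

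Type I and type III interferons are secreted proteins that cells release when they sense viral or misplaced nucleic acid. They bind cell surface receptors, whose kinases activate STAT proteins. These join IRF9 to form ISGF3, a complex that binds the interferon-stimulated response element (ISRE) in promoters and switches on a large set of antiviral genes. Interferon gamma, which is type II, acts through another receptor. In the gut, fibroblasts can both respond to interferons and recruit immune cells through the chemokines that the response induces.

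Among the gate genes, Ifit1 and Ifit3 encode proteins that restrict viral RNA, Rsad2 encodes viperin, Cmpk2 encodes a nucleotide kinase, and Usp18 encodes a protease that removes ISG15 from proteins and dampens interferon signalling. In GENCODE M21 on GRCm38, Ifit1 lies at chr19:34640871-34650009 and Ifit3 at chr19:34583531-34588731, both on the plus strand. Rsad2 at chr12:26442746-26456452 on the minus strand and Cmpk2 at chr12:26469204-26479837 on the plus strand are neighbours that point away from each other. Usp18 lies at chr6:121245906-121270917 on the plus strand.

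Promoter stretches are shown for the gate genes and some picked leading genes that held a match, because the ISRE is the element to which ISGF3 binds. The other leading genes named below were not picked, so any matches in their promoters are not shown. The search letters were GAAA, 2 bases of any kind and GAAA, on both strands, in the 250 bases before each RefSeq start site (GRCm38.p6). Capitals mark the matches, which read as TTTC, 2 bases and TTTC when they lie on the other strand, and each stretch includes 20 bases on either side. All are written 5' to 3' on the strand of the gene and contain no exon of GENCODE. Ifit1 (chr19:34640765-34640833, plus strand) had 2 matches, as did Ifit3 (chr19:34583353-34583436, plus strand) and its close copy Ifit3b (chr19:34607749-34607832, plus strand). Rsad2 (chr12:26456543-26456592, minus strand) and Cxcl10 (chr5:92349073-92349122, minus strand) had 1 match each, and Isg15 (chr4:156200855-156200916, minus strand) had 3 that overlap.
Ifit1: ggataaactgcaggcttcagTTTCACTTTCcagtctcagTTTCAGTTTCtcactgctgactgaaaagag
Ifit3: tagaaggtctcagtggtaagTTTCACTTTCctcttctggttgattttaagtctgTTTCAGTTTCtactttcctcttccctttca
Ifit3b: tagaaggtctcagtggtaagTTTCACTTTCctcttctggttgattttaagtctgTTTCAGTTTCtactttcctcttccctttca
Rsad2: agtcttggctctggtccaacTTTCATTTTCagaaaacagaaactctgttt
Isg15: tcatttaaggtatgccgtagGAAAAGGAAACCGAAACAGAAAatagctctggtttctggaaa
Cxcl10: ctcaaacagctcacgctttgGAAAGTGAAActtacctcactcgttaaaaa

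The stretches of Ifit3 and Ifit3b were identical at 84 of 84 bases. The promoter of Cmpk2 held no match to these letters, and Usp18 had no promoter in the table. The search also found no match for the leading genes Ifi44, Oasl2 and Irf7, or for Cxcl9 and Bnip3. Over the whole promoter table, 2.98% of 32851 promoters held a match. Of the genes tested for expression here, 3.23% of the 11502 with a promoter in the table held one. The share was 13.5% of 534 genes called higher in gated fibroblasts, 3.40% of 265 called lower, and 46.7% of 45 listed antiviral genes. A second motif, the STAT site (TTC, 3 bases of any kind, GAA), was present in 8.80% of the genes called higher, 5.66% of those called lower, 22.2% of the 45 antiviral genes and 7.06% of the tested genes. These are counts of letters and not of bound factors.

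The share of gated cells differed widely between the replicates. In stroma 1, 149 of 7073 fibroblasts passed, which is 2.11% (exact 95% binomial interval 1.78% to 2.47%). In stroma 2, 1149 of 8485 passed, which is 13.5% (12.8% to 14.3%). Stroma 2 was the shallower library, with a median of 13294 UMIs per fibroblast against 14896 in stroma 1. When every fibroblast was thinned to 5000 UMIs, which left out 98 and 52 shallower cells, the shares were 1.13% and 6.47%. With 1 library on each side this difference has no test, and the intervals cover counting error only. Among barcodes that passed the quality limits, 28 occurred in both stromal libraries, and none of these was a gated cell in both.

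Cells with every number of gate genes from 0 to 5 were present. In stroma 1, 6084 fibroblasts had none, 704 had 1, 136 had 2, 59 had 3, 41 had 4 and 49 had all 5. In stroma 2 the corresponding numbers were 4501, 1941, 894, 550, 328 and 271. No class was empty at the limit of 3, and the 609 cells just inside it adjoin 1030 cells with 2 gate genes just outside. These classes rest on few UMIs. The median sum of gate gene UMIs was 3 in cells with 2 gate genes in both libraries. In cells with 3 it was 8 in stroma 1 and 7 in stroma 2. Whether the cells form a continuum was not tested. Moving the limit to 2 genes gave shares of 4.03% and 24.1%, and moving it to 4 genes gave 1.27% and 7.06%.

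**Figure D1:**
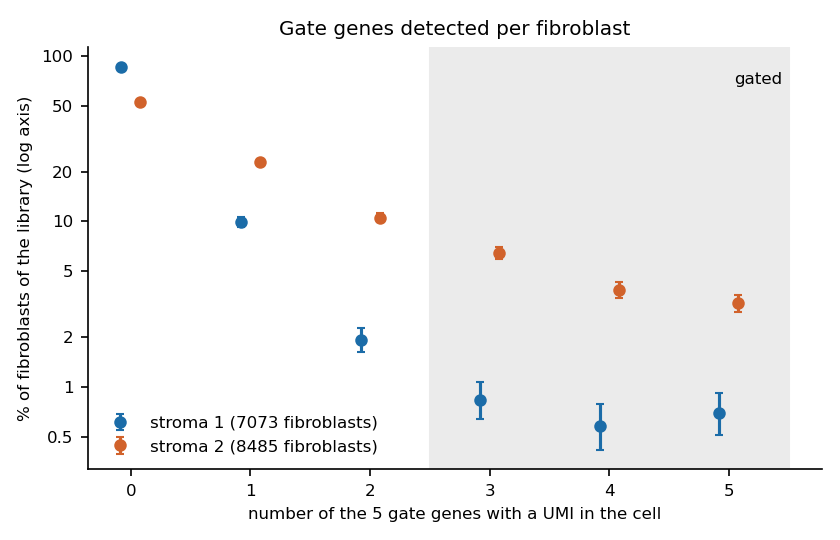
Share of fibroblasts (log axis, % of the library) by the number of the 5 gate genes with at least 1 UMI in the cell, with exact 95% binomial intervals. The grey area marks the gated cells, and stroma 2 lies above stroma 1 at every number from 1 to 5.

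The values of the gate genes chose the cells and are given as a description without a test. Ifit1 was at 579 CPM (counts per 1000000 UMIs of the summed cells) in gated fibroblasts of stroma 1 and 488 CPM in stroma 2, against 4.08 and 22 CPM in the others. Rsad2 was at 170 and 133 CPM in gated cells, against 0.334 and 1.86 CPM. The gated level was similar in the replicates, while the level outside the gate was higher in stroma 2 for all 5 genes. The same limit chose the gated cells of both libraries. Outside it, stroma 2 held more cells with 1 gate gene (1941 against 704) and with 2 (894 against 136). Nothing is therefore read from this pattern of the gate genes. Gated cells held 79.0% and 81.1% of all Ifit1 UMIs of the fibroblasts and 93.1% and 93.2% of the Rsad2 UMIs. Cells with exactly 3 gate genes mostly owed their place to Ifit1, Ifit3 and Usp18. In stroma 2, 520 of these 550 cells had an Ifit1 UMI, 504 an Ifit3 UMI and 419 a Usp18 UMI, while 99 had an Rsad2 UMI and 108 a Cmpk2 UMI.

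The gated cells were fibroblasts by genes that the rule did not use. Col1a1, a chain of collagen I, was at 1555 and 1852 CPM in gated cells and 1321 and 1586 CPM in the others. Dcn, which encodes the matrix proteoglycan decorin, was at 1307 and 1754 CPM against 1188 and 1793 CPM. Pdgfra, the receptor that marks gut fibroblasts, was at 230 and 294 CPM against 203 and 254 CPM. None of the 3 was called different, though among cells of similar depth Col1a1 and Pdgfra were called higher by 0.15 and 0.23 on the log2 scale and Dcn was called lower (-0.22, adjusted p = 0.00791). Dcn was also called lower without the 6% of fibroblasts with the most UMIs (-0.13, adjusted p = 0.000805). There Col1a1 (0.24) and Pdgfra (0.18) were called higher. Both were also called higher with 2 gate genes (0.12 and 0.19), and Col1a1 with 4 (0.19). Gated cells were somewhat deeper, with medians of 17335 and 15802 UMIs against 14850.5 and 13034.5, and their mitochondrial shares were alike, at 4.02% and 4.12% against 3.89% and 4.11%. Comparisons were therefore repeated among cells of similar depth. No doublet caller was run, and leaving out the 6% of fibroblasts with the most UMIs stood in for one.

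UMIs were summed over the gated and over the other fibroblasts of each library, and 15497 genes outside the rule were tested with edgeR, with the library as a block. At an adjusted p under 0.05, 685 genes were called higher in gated fibroblasts (4.42% of those tested) and 340 lower (2.19%), with a median log2 fold change of -0.02 over all genes. The counts of each gene list below are to be read beside these shares. The sign was the same in both libraries for 669 of the 685 and 339 of the 340. Among the higher genes, 220 changed at least 2-fold, against 44 of the lower ones. The cells had been chosen on 5 interferon-induced genes, so other genes of that response are a description of the cells and not independent evidence of it. The fit had a single residual degree of freedom per gene. Without the library as a block, 2 genes were called higher (Cxcl9 and Slfn2) and 0 lower, while 972 had an unadjusted p under 0.05. With DESeq2 the calls were 318 and 89.

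The interferon genes themselves were scarcely detected. Ifnb1, the interferon beta that fibroblasts typically make first, had no UMI in 9020 cells of stroma 1, which allows up to 0.0186 CPM. In stroma 2 it had 4 UMIs, all in 1 fibroblast that had none of the gate genes. Ifng, the gene of interferon gamma, had 3 UMIs in 2 cells of stroma 1 and none in stroma 2. Of the 12 listed interferon genes only Ifnz had enough UMIs to be tested, and it was not called (24 and 28 UMIs among all cells). Interferon proteins were not measured.

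The chains of the type I receptor were not called different. Ifnar1 was at 34.9 and 39.1 CPM in gated cells and 32.9 and 34.5 CPM in the others, a log2 fold change of 0.10 ± 0.08 (SE, adjusted p = 0.575). Ifnar2, the second chain of the type I receptor, was at 204 and 172 CPM against 184 and 178 CPM (0.00 ± 0.07, adjusted p = 0.999). The kinase gene Jak1 was not called either (0.11 ± 0.06, adjusted p = 0.376). Ifngr1, the ligand-binding chain of the interferon gamma receptor, fell by 0.37 on the log2 scale (113 and 163 CPM against 167 and 181 CPM, adjusted p = 0.00859). Among cells of similar depth it was -0.23 (adjusted p = 0.0556).

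Transducers of the response rose in part. Stat2, a subunit of ISGF3, was at 87.6 and 101 CPM in gated cells and 14.9 and 29.7 CPM in the others, a log2 fold change of 2.06 ± 0.13 (adjusted p = 2.56e-08). Irf9, the DNA-binding subunit of ISGF3, was at 49.1 and 66.9 CPM against 15.7 and 30.4 CPM and rose by 1.29 ± 0.10. A larger change was that of Irf7, the factor that amplifies type I interferon production. It stood at 177 and 179 CPM in gated cells and at 9.63 and 35.3 CPM in the others (3.14 ± 0.27, adjusted p = 6.51e-07). For these 3 genes the gated and other groups did not overlap, and 22.2% of all tested genes were likewise higher in gated cells of either library than in other cells of either library. Of 19 receptor and transducer genes tested, 9 were called higher and 2 lower, and the list median was 0.15. Irf8, which directs macrophage and dendritic cell fates, was the other one called lower (7.44 and 18.0 CPM against 15.6 and 22.3 CPM), with a log2 fold change of -0.51. This call was lost with DESeq2 at a fold change of -0.62 (adjusted p = 0.195) and among cells of similar depth at -0.32 (adjusted p = 0.273).

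The negative regulators split. Socs1, which blocks JAK kinases, rose by 0.82 ± 0.09 (26.2 and 27.9 CPM against 14.3 and 15.3 CPM, adjusted p = 1.27e-05). Socs3, which is chiefly induced through STAT3, was at 183 and 171 CPM against 196 and 190 CPM and was not called (adjusted p = 0.147). It was called lower with 2 gate genes (-0.21, adjusted p = 0.000477) and against fibroblasts with none of the gate genes (-0.22, adjusted p = 0.0468). Usp18, also a brake on the pathway, was part of the gate and has no test.

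Sensors of nucleic acid rose in part. The RNA helicases Ifih1 (MDA5) and Ddx58 (RIG-I), which detect viral RNA in the cytosol, changed by 2.48 ± 0.13 and 2.11 ± 0.11. Ifih1 was at 74.7 and 81.0 CPM in gated cells and 9.72 and 17.3 CPM in the others. Tlr3, the sensor of double-stranded RNA in endosomes, was at 22 and 22.9 CPM against 3.24 and 5.73 CPM (2.22 ± 0.17, adjusted p = 1.36e-07). The DNA sensor Cgas changed less, from 9.74 and 9.75 CPM to 13.6 and 15.4 CPM (0.56 ± 0.12, adjusted p = 0.00948, and 0.54 with DESeq2, adjusted p = 0.345). Its partner Tmem173, which encodes STING, was at 54.0 and 49.9 CPM against 49.0 and 47.9 CPM and was not called. Irf3, the factor these sensors switch on by phosphorylation, was not called either (adjusted p = 0.963). In all, 7 of 15 tested sensor genes were called higher and none lower, with a median of 0.56.

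Antiviral effectors formed the largest block. Of 55 tested, 53 were called higher and 0 lower, with a median log2 fold change of 2.50 beside -0.02 over all genes. Among the 53, Tgtp1, Tgtp2 and Oas1g had few UMIs in the other fibroblasts and passed the filter on low counts only with the gated cells. Nothing is read from their calls. Isg15, a ubiquitin-like protein that is attached to viral and host proteins, was at 1760 and 1343 CPM in gated cells and 58.2 and 165 CPM in the others (3.92 ± 0.29, adjusted p = 1.24e-07). The 2'-5' oligoadenylate synthetase-like genes Oasl1 and Oasl2 changed by 5.20 ± 0.35 and 3.49 ± 0.27. Ifi44 was at 132 and 153 CPM in gated cells and 2.75 and 17.4 CPM in the others. The groups did not overlap for Isg15 and Ifi44, a pattern that 22.2% of all tested genes share.

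Ifit3b was at 194 and 143 CPM in gated cells and 0.839 and 6.17 CPM in the others (5.77 ± 0.46). It is nearly identical to the gate gene Ifit3, as are Oas1a and Oas1g or Tgtp1 and Tgtp2 to each other. Reads may have been split between such copies, so their separate values are uncertain. Ifit3 helped to choose the cells, so nothing is read from the fold, the call or the rank of Ifit3b.

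Gbp2 and Igtp encode GTPases that attack vacuoles of intracellular microbes. Gbp2, a guanylate-binding protein, was at 124 and 89.8 CPM in gated cells and 8.58 and 13.1 CPM in the others (3.22 ± 0.17, adjusted p = 4.96e-09). Igtp, an immunity-related GTPase, was at 121 and 97.2 CPM against 5.37 and 12.5 CPM (3.59 ± 0.23, adjusted p = 2.28e-08). Of the 15 leading genes by fold change at a mean log2 CPM of at least 5, 11 were in the antiviral list. In order these were Cxcl10, Ifit3b, Ifi44, Isg15, Igtp, Ccl5, Oasl2, Ifi47, Trim30a, Gbp2, Gbp7, Irf7, Gbp6, Parp14 and Rnf213.

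Some effectors were high everywhere. Ifitm2, an inhibitor of viral entry, was at 2812 and 2298 CPM in gated cells and 2641 and 2233 CPM in the others (0.03 ± 0.06, adjusted p = 0.899). It was called higher among cells of similar depth (0.08, adjusted p = 0.0486) and without the cells with the most UMIs (0.07, adjusted p = 0.0411). Ifitm1 was not called either (adjusted p = 0.652), and these were the 2 effectors without a call. Ifitm3 rose by 0.46 ± 0.06, from 4202 and 3981 CPM to 6033 and 5562 CPM. Bst2, which tethers budding viruses, already stood at 273 and 493 CPM outside the gate and reached 1100 and 1361 CPM inside it (1.70 ± 0.10, adjusted p = 9.12e-09).

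**Figure D2:**
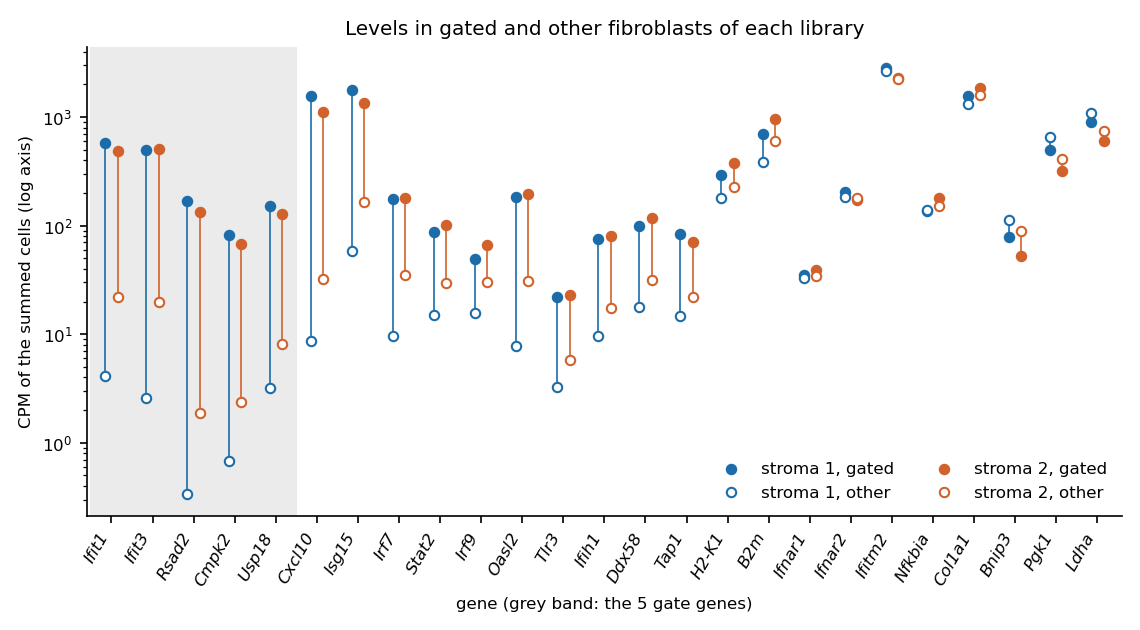
CPM (log axis) of 25 genes in gated (filled) and other fibroblasts (open) of each stromal library, with a line joining the values of one library. Filled points of the libraries lie close together for the interferon-induced genes, whereas the open points of stroma 2 lie above those of stroma 1, and Ifnar1, Ifnar2, Ifitm2 and Nfkbia hardly separate.

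The replicates differed outside the gate more than inside it, where the same limit of 3 gate genes had chosen the cells of both libraries. Stroma 2 also held more cells with 1 or 2 gate genes among the others, and how much this adds was not tested. Over the 55 antiviral genes, the median log2 ratio of stroma 2 to stroma 1 was 0.01 in gated cells and 0.97 in the other fibroblasts. For 50 of the 55 the level outside the gate was higher in stroma 2. The signed log2 ratio of gated to other cells was higher in stroma 1 for all 55, although that of Ifitm1 was below 0 in both libraries, with median ratios of 3.13 in stroma 1 and 2.11 in stroma 2. Ifi27l2a belongs to those with a high level outside the gate in stroma 2. Even fibroblasts with none of the gate genes differed, with Isg15 at 38.3 CPM in stroma 1 and 79.8 CPM in stroma 2. Each replicate is 1 library, and what sets them apart was not tested.

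Levels climbed with the number of gate genes in the cell. A sum over 49 antiviral genes was used, after 7 that exceeded 100 CPM in fibroblasts with no gate gene had been left out, a choice made after their values were seen. In stroma 1 this sum was 571 CPM with no gate gene, 909 with 1, 1691 with 2, 4036 with 3, 6639 with 4 and 9247 with 5. In stroma 2 it was 874, 1324, 2386, 3885, 5522 and 10850 CPM. Over these 49 genes, cells with 2 gate genes, outside the gate, thus had 2.96 times the sum of cells with none in stroma 1. In stroma 2 it was 2.73 times. With the 7 genes kept, the sum climbed far less steeply. In stroma 1 it was 10612 CPM with no gate gene, 13162 with 2 and 23722 with all 5. In stroma 2 it was 10844, 15478 and 27660 CPM. Cells were also thinned as for the shares. UMIs of the whole list then reached the 5th percentile of gated cells in 47.9% and 59.7% of the other fibroblasts. Median depth was 14557.5 UMIs with none of the gate genes and 16967 UMIs with all 5 in stroma 1, and 12339 and 14846 UMIs in stroma 2. This description has no test.

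Irf7 went from 6.98 CPM in cells with no gate gene to 223 CPM in cells with all 5 in stroma 1, and from 20.5 to 269 CPM in stroma 2. Cxcl10 was at 7.40 CPM with no gate gene and 48.1 CPM with 2 in stroma 1, where Irf7 was at 6.98 and 43.5 CPM, and at 25.6 and 67.8 CPM in stroma 2, where Irf7 was at 20.5 and 86.6 CPM. With all 5 gate genes Cxcl10 reached 3329 and 3627 CPM, far above Irf7. By contrast, Ifnar1 kept between 32.7 and 43.6 CPM over all steps of both libraries.

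**Figure D3:**
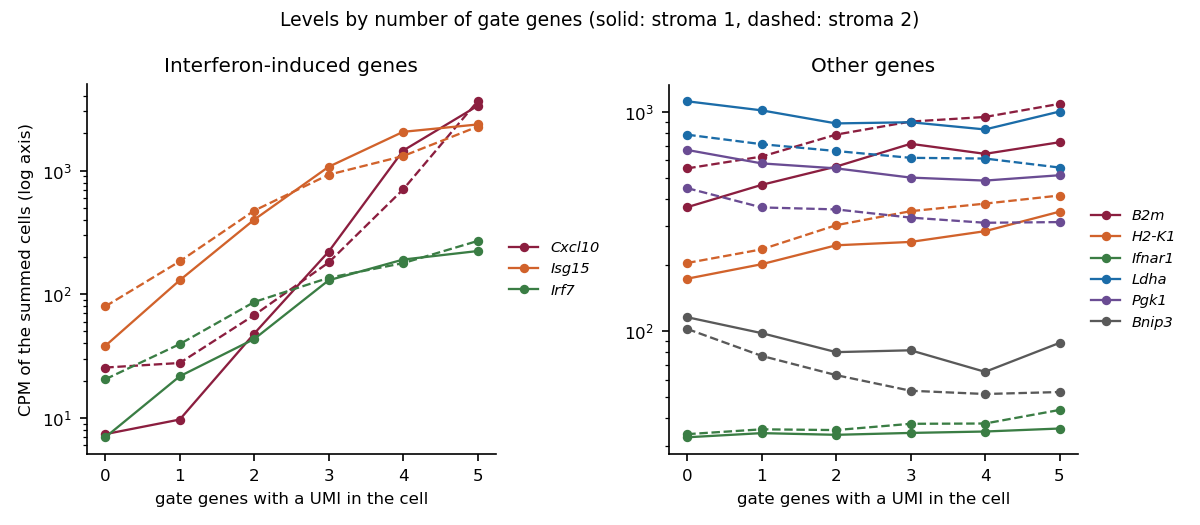
CPM (log axis) of the summed cells by the number of gate genes with a UMI, solid for stroma 1 and dashed for stroma 2. Cxcl10, Isg15 and Irf7 climb by far more than B2m and H2-K1, Ifnar1 is nearly flat, and Ldha, Pgk1 and Bnip3 are lower with 2 gate genes than with none.

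Genes of MHC class I and of the processing of its peptides all rose. All 20 tested were called higher, with a median log2 fold change of 0.94. One of them, Nlrc5, passed the filter on low counts only with the gated cells, so nothing is read from its call. B2m, the light chain of class I, was at 696 and 955 CPM in gated cells and 383 and 605 CPM in the others (0.72 ± 0.07, adjusted p = 1.69e-06). The heavy chain gene H2-K1 was at 293 and 374 CPM against 178 and 227 CPM (0.68 ± 0.06, adjusted p = 1.18e-06). Changes were larger for the peptide transporter gene Tap1 (1.98 ± 0.14) and for Psmb8, a subunit of the immunoproteasome (1.24 ± 0.11). Tap1 was at 83.7 and 70.9 CPM against 14.8 and 22.1 CPM. H2 genes are a family of close relatives, so reads may have been shared between them. With DESeq2, 17 of the 20 were called.

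No gene of MHC class II was called higher among 4 tested, and H2-Ab1, a chain of the class II molecule, was lower, at 17.1 and 4.81 CPM against 20.3 and 9.03 CPM (-0.68, adjusted p = 0.0112, and -0.65 with DESeq2, adjusted p = 0.285). Ciita, the master activator of class II that interferon gamma induces, had too few UMIs to be tested.

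Of 19 chemokines and cytokines tested, 7 were called higher and 2 lower, with a median of 0.24, and 5 were lower with 4 gate genes. Cxcl10, which attracts T cells, was at 1555 and 1115 CPM in gated cells and 8.73 and 32.1 CPM in the others, the largest log2 fold change of the named genes (6.21 ± 0.38, adjusted p = 1.88e-08). Cxcl9, another ligand of its receptor CXCR3, was at 34.3 and 36.9 CPM against 0.634 and 1.04 CPM (5.34 ± 0.16, adjusted p = 6.58e-12). Ccl5, which attracts T cells and other leukocytes, was at 177 and 132 CPM against 8.89 and 16.4 CPM (3.57 ± 0.20, adjusted p = 8.13e-09). Tnfsf10, which encodes the death ligand TRAIL and is 1 of the 7, had 8 and 64 UMIs in gated cells and 0 and 14 UMIs in the others. It passed the filter on low counts only with the gated cells, so nothing is read from its call and no fold is given.

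These chemokines were very uneven among gated cells. Cxcl10 had a UMI in 65.1% (56.9% to 72.7%) of the gated cells of stroma 1 and 59.1% (56.2% to 62.0%) of those of stroma 2, against 7.25% and 20.8% of the others. Thinned to 5000 UMIs, the shares were 58.4% and 45.7% against 2.78% and 9.64%. The median gated cell had 6 Cxcl10 UMIs in stroma 1 and 1 in stroma 2, while the 10% of gated cells with the most held 47.4% and 67.5% of the UMIs. For Isg15 the top 10% held 28.7% and 28.5%. Ccl5 was seen in only 6.04% and 6.27% of gated cells, with up to 326 and 720 UMIs in 1 cell, and Cxcl9 in 4.70% and 5.57%. The high CPM of Ccl5 therefore came from 9 of 149 and 72 of 1149 gated cells.

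Changes in other secreted factors were smaller. Ccl2, which attracts monocytes, was at 882 and 1171 CPM against 505 and 380 CPM (1.18 ± 0.12, adjusted p = 3.77e-06, and 1.17 with DESeq2, adjusted p = 0.367). Il6 was at 24.2 and 20.6 CPM against 13.2 and 13.2 CPM (0.68 ± 0.10, adjusted p = 0.000487). Ccl11, the eosinophil attractant eotaxin, was lower (840 and 1053 CPM against 1157 and 1202 CPM, adjusted p = 0.00224), but not among cells of similar depth, where its log2 fold change was -0.04 (adjusted p = 0.652). The neutrophil attractant Cxcl1 was not called, except lower with 4 gate genes (-0.24, adjusted p = 0.0482).

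None of the 14 listed targets of NF-kB, the other arm of the response to microbes, was called higher in the main comparison, and their median was 0.10. Targets outside this list are not part of the count. As 4.42% of all tested genes were called higher, nothing is read from this count. Nfkbia, the feedback inhibitor of NF-kB, was at 137 and 181 CPM against 138 and 152 CPM (0.09 ± 0.07, adjusted p = 0.549), though it was called higher with 2 gate genes (0.23, adjusted p = 0.000219). Icam1 was called lower at the margin (-0.28, adjusted p = 0.0498), a call lost at values between -0.24 and -0.29 among cells of similar depth, without the cells with the most UMIs, with 4 gate genes, with at most 5% mitochondrial UMIs and with DESeq2.

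Of 16 genes of cell death, 7 were called higher and none lower, with a median of 0.31. Xaf1, among the 7, is also in the antiviral list and is counted in both. Daxx, a regulator of transcription and death signalling, was at 54.3 and 53.7 CPM in gated cells and 17.7 and 18.9 CPM in the others (1.51 ± 0.08, adjusted p = 5.06e-09). Mlkl, which perforates the membrane in necroptosis, was at 41.7 and 42.5 CPM against 15.9 and 19.7 CPM (1.17 ± 0.09, adjusted p = 2.02e-07). The initiator caspase gene Casp8 changed little (0.35 ± 0.08, adjusted p = 0.0176, and 0.36 with DESeq2, adjusted p = 0.377).

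**Figure D4:**
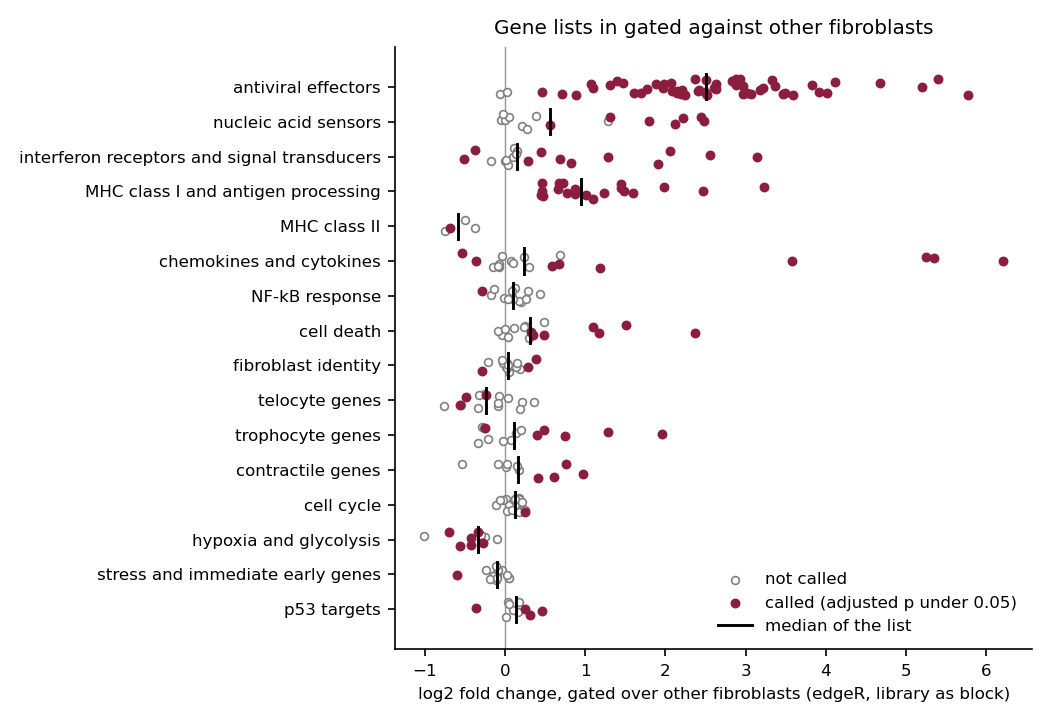
Log2 fold change of gated over other fibroblasts for the tested genes of 16 lists, filled where the adjusted p was under 0.05, with the list median as a bar. Antiviral effectors other than Ifitm1 and all of MHC class I lie to the right of 0, NF-kB targets and the cell cycle lie around it, and hypoxia and glycolysis genes lie to its left.

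Hypoxia and glycolysis genes were lower in part. Of 11 tested, 6 were called lower and none higher, with a median of -0.33, and all 11 were lower in both libraries, as were 35.0% of all tested genes. Bnip3, a mitophagy gene that HIF induces, was at 78.9 and 52.6 CPM in gated cells and 112 and 89.3 CPM in the others (-0.69 ± 0.08, adjusted p = 2.88e-05). Pgk1, a glycolytic kinase, was at 500 and 320 CPM against 655 and 411 CPM (-0.42 ± 0.06, adjusted p = 0.000244). Eno1 changed by -0.42 ± 0.06 and Ldha, lactate dehydrogenase, by -0.33 ± 0.06. Vegfa, the vessel growth factor, was at 125 and 87.9 CPM against 132 and 90.8 CPM and was not called (adjusted p = 0.492). The libraries overlapped across the groups for Ldha, Pgk1 and Eno1, since stroma 1 was higher in both classes, so these calls rest on the comparison within each library. Among cells of similar depth 6 of the 11 were called lower, with DESeq2 4, and against fibroblasts with none of the gate genes 10.

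The 10 lowest called genes by fold change at a mean log2 CPM of at least 5 were Gal, Adamdec1, Rbp4, Penk, Fabp5, Il1r2, Ndufa4l2, Bnip3, Agt and Prelid2. Gal, which encodes the neuropeptide galanin, was at 3.23 and 10.7 CPM in gated cells and 60.9 and 31.2 CPM in the others (-2.09 ± 0.24, adjusted p = 2.14e-05). This call was lost with at most 5% mitochondrial UMIs, where the log2 fold change shrank to -0.77 (adjusted p = 0.162), and with DESeq2, where it was larger at -2.88 (adjusted p = 0.220). Among cells of similar depth the calls of Agt (-0.17, adjusted p = 0.641, against -0.60 in all cells) and Penk (-0.30, adjusted p = 0.0736, against -0.76) were lost. The call of Fabp5 (-0.74) was lost with 2 gate genes (-0.14, adjusted p = 0.395) and with at least 10 Col1a2 UMIs (-0.38, adjusted p = 0.0829). Gal was also 72.5 CPM in stroma 2 cells with 1 gate gene and 16.8 CPM in those with none, so it does not fall step by step. Markers of neurons were lower as well in gated cells, with 9 genes summing to 23 and 32.0 CPM against 43.6 and 46.0 CPM, and their part in the result was not tested. Rbp4, a carrier of retinol, was at 67.2 and 48.8 CPM against 90.5 and 95.8 CPM (-0.79 ± 0.11, adjusted p = 0.000126). Ndufa4l2, a mitochondrial gene induced in hypoxia, was at 162 and 76.7 CPM against 237 and 135 CPM (-0.73 ± 0.08, adjusted p = 6.66e-06).

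Gated cells occurred among fibroblasts with and without the markers of both crypt niches. Telocytes are fibroblasts near the crypt top that express Foxl1 and BMP ligands, and trophocytes are CD34-positive fibroblasts near the base that secrete the BMP inhibitor gremlin 1 (Grem1) and R-spondin 3. In stroma 2, 36 of 262 fibroblasts with a Foxl1 UMI passed the gate (13.7%, 9.81% to 18.5%), against 13.5% (12.8% to 14.3%) of those without. Of fibroblasts with a Cd34 UMI, 13.9% (12.5% to 15.5%) passed, against 13.4% (12.6% to 14.3%) of those without. In stroma 1 the shares with and without a Cd34 UMI were 2.49% (1.81% to 3.34%) and 1.98% (1.63% to 2.39%), and 2 of 166 cells with a Foxl1 UMI passed (1.20%, against 2.13% without). Cells with either UMI were deeper than those without. Thinned to 5000 UMIs, the order turned in stroma 2, with 4.96% (2.67% to 8.34%) of cells with a Foxl1 UMI against 6.52% (5.997% to 7.08%) of those without, and 5.84% (4.89% to 6.91%) with a Cd34 UMI against 6.70% (6.09% to 7.34%) without. In stroma 1 the thinned shares were 1.20% with and 1.13% without a Foxl1 UMI, where the order also turned, and 1.395% with and 1.05% without a Cd34 UMI. The intervals overlap in each pair.

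Of 15 telocyte genes, 3 were called lower and none higher, with a median of -0.24. The lower calls were 1 among cells of similar depth, with 4 gate genes and with DESeq2. Bmp4 was at 149 and 218 CPM in gated cells and 176 and 246 CPM in the others (adjusted p = 0.0301), but among cells of similar depth its log2 fold change was -0.08 (adjusted p = 0.632). Tgfbi, a matrix protein induced by TGF-beta, fell by 0.49 on the log2 scale (adjusted p = 0.000863). Of 14 trophocyte genes, 5 were called higher and 1 lower, with a median of 0.11. The higher calls were 3 with DESeq2. The lower calls were 0 among cells of similar depth and 2 with 2 or with 4 gate genes. The largest of the 5 were Cfb (1.96 ± 0.13), which encodes complement factor B, and Ly6a (1.29 ± 0.09), which encodes the surface protein Sca-1. Both are known interferon targets as well as markers of these cells. Grem1 rose by 0.49 ± 0.06 (1151 and 863 CPM against 768 and 622 CPM, adjusted p = 6.05e-05), and Cd34 itself was not called.

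Among 14 fibroblast identity genes 2 were called higher and 1 lower, beside 4.42% and 2.19% of all tested genes, with a median of 0.03. The calls were 4 and 3 among cells of similar depth, and 5 and 3 without the cells with the most UMIs. Pdpn, the surface protein podoplanin, rose by 0.39 ± 0.07 (adjusted p = 0.00112). Of 10 contractile genes 4 were called higher and none lower, and 2 when the cells with the most UMIs were left out. Acta2, smooth muscle actin, was at 187 and 99.0 CPM against 95.3 and 76.6 CPM (0.61 ± 0.11, adjusted p = 0.00160). Only Top2a was called higher among 20 cell cycle genes (0.25 ± 0.06, adjusted p = 0.0179), a count near the share of 4.42% over all tested genes. The number was 7 when the gate required 4 genes and 6 against fibroblasts with none of the gate genes. The Top2a call was lost among cells of similar depth (0.17, adjusted p = 0.0859), with at least 10 Col1a2 UMIs (0.22, adjusted p = 0.0573) and with DESeq2 (0.25, adjusted p = 0.0909), which left 0 cell cycle genes called higher in each. Mki67 had a UMI in 28.2% and 20.02% of gated cells thinned to 5000 UMIs, against 25.02% and 16.8% of the others. In the stress and immediate early list, Atf3 alone of 14 was called (lower, -0.60, adjusted p = 0.00136, and -0.67 with DESeq2, adjusted p = 0.0780), beside 2.19% of all tested genes called lower. The number called lower in this list was 7 with 2 gate genes, 3 with 4 gate genes, without the cells with the most UMIs, against fibroblasts with none of the gate genes or without the filter on low counts, and 2 with at most 5% mitochondrial UMIs. Of 10 p53 targets 3 were called higher and 1 lower. The higher calls were 0 with DESeq2, and the lower call was lost with DESeq2 and under 4 other alternatives.

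Summed markers of immune, endothelial, epithelial and neuronal cells were lower in gated cells than in the other fibroblasts of the same library, while those of glia were higher in stroma 1 and lower in stroma 2. The 16 immune markers summed to 17.1 and 14.2 CPM in gated cells against 20.9 and 34.1 CPM, 13 of the 16 had no UMI in gated cells of stroma 1 and 7 had none in those of stroma 2, and 4 of 8 tested were called lower. These include Tyrobp, which had no UMI in gated cells and passed the filter on low counts through the other fibroblasts alone, so nothing is read from this count. Among those at 0 in both libraries were Adgre1, Tyrobp and Cd3e, and Ptprc (CD45) was at 0 in stroma 1. Endothelial markers summed to 33.0 and 36.1 CPM against 38.5 and 52.9 CPM, with 3 of 9 tested called lower and 1 higher. Epithelial markers summed to 78.6 and 15.8 CPM against 88.8 and 24.8 CPM, with 2 of 11 lower. For glia the sums were 13.9 and 5.14 CPM against 7.21 and 7.69 CPM with none of 8 called. Neuronal markers, given above, had 4 of 9 called lower, and 7 with 2 gate genes. Many of these calls were lost under alternatives. With DESeq2 they were 2 lower for immune cells and 0 for endothelial, epithelial and neuronal cells, and with at least 10 Col1a2 UMIs 0 were lower in any of the 4. Among cells of similar depth 1 immune, 1 epithelial and 0 neuronal markers were called lower, and the neuronal count was also 0 with 4 gate genes and with at most 5% mitochondrial UMIs. The endothelial marker called higher was lost among cells of similar depth, without the cells with the most UMIs and with DESeq2.

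The 5-gene gate was also applied to endothelial cells of the same libraries. Of cells with UMIs of both endothelial genes Pecam1 and Cdh5, 0 of 25 passed in stroma 1, which allows a share of up to 12.0% by the limit of 3 counts and up to 13.7% by the exact interval, and 5 of 70 in stroma 2 (7.14%, 2.36% to 15.9%). Some of these cells also met the fibroblast limits, 34 of the 70 in stroma 2, and RNA free in the droplets can add UMIs to any cell. The intervals are too wide to rank these cells against the fibroblasts.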

How the data were processed

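For each of 8 libraries the authors deposited a matrix of raw UMI counts, genes by barcodes, made with Cell Ranger 6.0.1 for stroma and 7.1.0 for epithelium per the file headers, without normalization. The submitters' processing notes name mm10 as the genome. Groups and replicate numbers came from the labels. A cell needed 500 or more genes and a mitochondrial share of 10% or less. The 2 stromal libraries held 164072756 and 141478777 UMIs. The summed gated cells held 3092974 and 21220348 UMIs, and the summed other fibroblasts 116774240 and 109940741.

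The sums went into the quasi-likelihood framework of edgeR 4.0.16, run in R 4.3.3 (TMM normalization, filter on low counts, library as block, Benjamini-Hochberg adjusted p under 0.05). The 5 gate genes, Col1a2 and Epcam stayed in the totals and were not tested. Gated and other cells of a library share a culture and a sequencing run, which is why the library is a block: over 4239 genes whose mean log2 CPM reached 5, the difference between the libraries in gated cells had a Pearson correlation of 0.70 with that in other cells. With 1 residual degree of freedom, p-values and SEs draw largely on a spread estimated across genes (the dispersion). They do not measure how far the 2 replicates differ for a single gene. Cxcl10 has an SE of 0.38, while its log2 fold changes were 7.46 and 5.06 in stroma 1 and stroma 2. On simulated data for this comparison over 15497 genes, 80 of 98 genes changed 2-fold and 89 of 100 changed 4-fold were recovered, with 4 false calls. The simulation used 1 common dispersion (0.0049), the same fold change in both libraries and the same library difference in both classes. The antiviral genes had median log2 ratios of 3.13 in stroma 1 and 2.11 in stroma 2, so the real data depart from it. Its false calls give no error rate for the real fit.

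Genes named are those of the lists, and the 15 highest and 10 lowest called genes whose mean log2 CPM reached 5 and that had the same sign in both libraries, without mitochondrial and ribosomal protein genes. The members, gene lists and motifs were chosen with earlier results of these data known. Levels are CPM and lists are described by their counts and medians. Shares carry exact Clopper-Pearson intervals at 95%, which cover counting error only, as does the limit of 3 counts used where none was seen. Cells were thinned to 5000 UMIs at random. Listed genes Mx1, Mx2, Mb21d1, Sting1, Cxcl11, Aldoa and Ddit3 were not analysed here, and some results are not reported here. The alternatives were DESeq2 1.42.0, its size factors, no filter on low counts, no block, cells between the 25th and 75th percentile of UMIs of the gated cells (called cells of similar depth), no cells of the top 6% of UMIs, gates of 2 or 4 genes, other fibroblasts with none of the gate genes, at most 5% mitochondrial UMIs, at least 1000 genes, at least 10 Col1a2 UMIs, and each library left out. Tables used pandas 2.3.3, scipy 1.17.1 and numpy 2.4.6 under Python 3.11.15.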

Additional observations from a re-analysis of the deposited data

Results flagged for a closer look

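The 5-gene gate was also applied to the epithelial libraries, which the comparisons do not use. Fibroblasts captured in the assembloid epithelium (at least 3 UMIs of Col1a2, none of Epcam) passed in 6 of 221 cases in library 1 (2.71%, exact 95% interval 1.00% to 5.82%) and 10 of 120 in library 2 (8.33%, 4.07% to 14.8%). Of epithelial cells (an Epcam UMI and no Col1a2 UMI), 48 of 24290 (0.198%) and 40 of 6612 (0.605%) passed in assembloids, against 0 of 4829 and 0 of 6554 in organoids, which allow up to 0.0621% and 0.0458%, and 1 of 4399 and 4 of 4100 (0.0976%) in tissue. These epithelial cells had median depths of 3501 and 13956.5 UMIs (assembloids), 35350 and 10452.5 UMIs (organoids) and 5248 and 4166 UMIs (tissue), and RNA free in the droplets was not measured. Cells with UMIs of the leukocyte gene Ptprc and the macrophage gene Csf1r passed in 5 of 165 (3.03%) and 11 of 177 (6.21%) cases in assembloid epithelium.

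Ifnb1 had 11 UMIs in 6 cells of assembloid epithelium 1 and 4 UMIs in 3 cells of assembloid epithelium 2, beside the 4 UMIs in 1 fibroblast of stroma 2. None of the differences between these libraries was tested.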

How the results depend on the processing

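Beside 685 genes called higher and 340 lower, the gate of 2 genes gave 1248 and 920, comparison with fibroblasts that had none of the gate genes 1050 and 602, and DESeq2 318 and 89. The lower calls were also 584 with the gate of 4 genes, 576 without the cells with the most UMIs, 602 without the filter on low counts and 201 with at least 10 Col1a2 UMIs. With no replicate block the calls were 2 and 0, and 1 of the 53 antiviral effectors was called (52 to 54 under the other alternatives). The pairing of gated and other cells within a library was part of the design. The sign of all 685 and all 340 genes was the same without it, but the same sums were refitted, so nothing is read from this. DESeq2 called 318 of the 685 and 89 of the 340, and cells of similar depth 464 and 156, in sums with fewer cells.

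The share of gated cells moved from 2.11% and 13.5% to 1.13% and 6.47% after thinning to 5000 UMIs, to 4.03% and 24.1% with 2 gate genes and to 1.27% and 7.06% with 4. Without the cells with the most UMIs it was 12.5% in stroma 2.

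Of 78 named genes, 64 were called. Among those without a call, signs turned for Ifitm1 (0.0987 in cells of similar depth, 0.0507 without the cells with the most UMIs), Ifitm2 (-0.009 with 4 gate genes) and Cxcl1 (0.1515 in cells of similar depth). Ifnar2 turned to -0.0308 with 2 gate genes, -0.0858 with 4, -0.0071 against fibroblasts with no gate gene, -0.0143 with at most 5% mitochondrial UMIs, -0.0022 with at least 10 Col1a2 UMIs, -0.0053 with DESeq2, -0.0054 with its size factors and -0.0135 without the filter. Dcn turned to -0.2238 in cells of similar depth and -0.1283 without the cells with the most UMIs, where it was called lower, and uncalled to -0.0309 with 2 gate genes, -0.1062 with 4, -0.0325 against fibroblasts with no gate gene, -0.005 with at least 10 Col1a2 UMIs, -0.0017 without the filter and -0.0042 with no replicate block. No called gene among the 78 turned sign under any alternative. The causes were not tested. With 1 library left out no test could be made, and the single-library ratios of the called genes kept their sign. In stroma 1 alone, 17 of the 64 lay over 1.5-fold further from 0 than with both libraries and 0 nearer, among them Ifit3b (7.82), Cxcl10 (7.46), Oasl1 (6.75), Ifi44 (5.56), Isg15 (4.90), Irf7 (4.18), Gal (-4.25) and Adamdec1 (-1.56). In stroma 2 alone 11 lay nearer and 0 further, among them Ifit3b (4.47), Cxcl10 (5.06) and Irf7 (2.28). Gal (-4.25), Agt (-1.14), Irf8 (-1.09), Atf3 (-1.05) and Cfb (2.51) moved in stroma 1 alone by more than the SD between libraries. Stroma 2 held 7.71 times as many gated cells as stroma 1, whose values are therefore the less precise.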
